A study of Homo sapiens with 18 samples.

Results

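PURPL-OE-2 is a human fibroblast line made to overexpress PURPL, a long noncoding RNA, and it is described here across all genes against its own control, Ctrl. Its libraries were taken by the names of their columns in the overexpression table, and they are 3 of the 18 libraries of the series. Of 61544 genes in the table, 15267 had enough counts to be tested. The parent of every group is BJ, an established line of human skin fibroblasts, PURPL-OE-2 carries PURPL overexpression and Ctrl is the corresponding control line. The same table holds PURPL-OE-1, another overexpression line, and a separate table holds a knockdown of PURPL by CRISPR interference with the guides sgPURPL-1 and sgPURPL-2 against sgCtrl, with 3 libraries in each group. The labels do not give the vector, the promoter, the passage or whether a line is a clone or a pool, so anything particular to 1 line cannot be told apart from PURPL itself. They also do not say whether the 3 libraries of a group came from separate cultures, so every p-value rests on library spread that may be technical.

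PURPL is transcribed from a gene that the tumour suppressor p53 switches on, and it is known for holding down the basal amount of p53. Senescence, the state that the series concerns, is a lasting exit from the cell cycle in which genes of replication and mitosis are silenced, lamin B1 is lost, inhibitors of cyclin-dependent kinases rise, and many cells secrete interleukins, chemokines and matrix proteases. Fibroblasts can also carry a standing interferon response, in which STAT2 and IRF9 take part in switching on antiviral genes through short promoter elements, and senescent cultures often carry it late.

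Total counts ran from 18858976 to 24783104 in the PURPL-OE-2 libraries, from 22600389 to 27985649 in PURPL-OE-1 and from 19316454 to 25125710 in Ctrl. The PURPL-OE-2 libraries are called library a and library b, whose columns carry no replicate number, and replicate 3. The correlation of log2 CPM (counts relative to a library total scaled by TMM) across genes was 0.990 to 0.991 among the PURPL-OE-2 libraries, 0.971 to 0.974 between them and Ctrl, and 0.986 to 0.989 between them and PURPL-OE-1. Library b stood apart in rare transcripts, with counts for 1597 genes that had none in the 8 other libraries, against 279 to 452 such genes in each other library, but these held 0.00976% of its counts. Mitochondrial genes took 5.37% to 5.90% of counts in PURPL-OE-2 and 4.26% to 4.80% in Ctrl, and the 10 most abundant genes took 9.57% to 9.76% in PURPL-OE-2 and 7.88% to 8.24% in Ctrl, and the part of either shift in the results was not tested. Markers bore out the fibroblast label. The 12 fibroblast markers summed to 31409 to 32616 CPM in PURPL-OE-2 and 24229 to 24732 CPM in Ctrl. The 12 keratinocyte markers summed to 10.6 to 13.7 CPM in PURPL-OE-2 and 10.5 to 11.5 CPM in Ctrl. The 7 endothelial markers were at 2.66 to 6.62 CPM in PURPL-OE-2 and 4.64 to 5.53 CPM in Ctrl, the highest in PURPL-OE-2 being library b, where KDR, a receptor of VEGF, was at 4.21 CPM against 0.213 CPM in library a and 1.15 CPM in replicate 3. Whether library b holds reads of another library was not tested. The 8 macrophage and immune markers were at 1.76 to 2.29 CPM in PURPL-OE-2 and 2.07 to 2.89 CPM in Ctrl. The 7 melanocyte markers summed to 73.2 to 75.4 CPM in PURPL-OE-2 and 52.1 to 55.7 CPM in Ctrl, nearly all of it MITF, and TYRP1 measured 0.746, 0.463 and 0.533 CPM in PURPL-OE-2 and 0, 0.117 and 0.0516 CPM in Ctrl. KRT1, KRT5, KRT14, MLANA, CDH5, CLDN5 and AIF1 were at 0 in PURPL-OE-2 and Ctrl alike.

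Of the 132 genes chosen for naming, 31 partly overlap a neighbour on the same strand, can lose the reads of the shared stretch and are uncertain to that extent, among them GLB1, MDM2, HMGB1, RB1, GDF15, EGFL6, RGS7BP, SLIT3, IGF2, PTK2B, THBS1, MT-CO3, RBL1, RBL2, PCNA, TOP2A, LMNB2, HLA-B, SLC7A5, SLC2A1, PFKP, NDRG1, NPC1, MT-ATP6, H2BC5, BCL2L11, MCL1, PRRX1, RIPOR3 and AKAP6. Of the list members given as further examples, STAT2, PSMB10, COL3A1 and ACTA2 also partly overlap a neighbour and carry the same uncertainty. Below, a value given as a rise or fall without a unit is a log2 fold change against Ctrl that passed the test.

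PURPL, the gene that was to be raised, spans 27217714 to 27496994 of chromosome 5 on the plus strand (hg38). It measured 125, 129 and 114 CPM in the PURPL-OE-2 libraries and 67.3, 66.7 and 59.2 CPM in the Ctrl libraries. Every PURPL-OE-2 library lay above every Ctrl library, and the level was 1.9-fold higher (log2 fold change 0.93 ± 0.0594 SE, adjusted p = 8.54e-14, edgeR quasi-likelihood test with Benjamini-Hochberg adjustment, as for every adjusted p of a gene below). PURPL-OE-1 held more, 166, 178 and 176 CPM, so that PURPL-OE-2 differed from it by -0.50 ± 0.0571 (adjusted p = 1.81e-07). Counts per gene do not separate transcripts of an added copy from those of the native gene.

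In all, 5878 genes (38.5% of those tested) differed between PURPL-OE-2 and Ctrl, 2882 higher (18.9%) and 2996 lower (19.6%). Large changes ran mostly downward: of 1105 genes changed at least 2-fold (7.24%), 795 were lower (5.21%) and 310 higher (2.03%). The 3 PURPL-OE-2 libraries lay wholly above the 3 Ctrl libraries for 23% of genes and wholly below them for 23.3%. The median log2 fold change over all genes tested was 0.01. Of 12311 protein-coding genes 41.9% were called, and of 2383 long noncoding RNAs 24.4%, at median levels of 21.2 and 1.15 CPM. Leaving out library b gave 5496 calls.

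The furthest falls were in the interferon response. All 37 tested members of the list were lower in PURPL-OE-2 (19.6% of all genes were), 35 of them at least 2-fold, with a median log2 fold change of -3.46 against 0.01 over all genes tested, and in none did a PURPL-OE-2 library reach a Ctrl library. RSAD2, which encodes the antiviral enzyme viperin, measured 1.28, 1.53 and 2.21 CPM in PURPL-OE-2 against 325, 309 and 312 CPM in Ctrl. MX1, a GTPase that blocks viral replication, measured 75.0, 80.6 and 78.4 CPM in PURPL-OE-2 against 1888, 1852 and 1883 CPM in Ctrl. The groups were thus apart by far more than their libraries differed, with RSAD2 184-fold lower (log2 -7.52 ± 0.0974, adjusted p = 8.86e-31) and MX1 24.0-fold lower (-4.59 ± 0.0608, adjusted p = 8.86e-31). In RNA from a whole culture, fewer cells with such a transcript and less of it per cell cannot be told apart.

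Promoter sequences of the interferon and mitosis genes are shown because these lists moved as blocks and share short elements in textbook accounts. The sequences are RefSeq promoter windows (GRCh38.p14, 250 bases before to 50 after a transcript start), read 5′ to 3′ on the gene's strand, and the genes are the 3 members of the interferon list with the smallest adjusted p that have a match in a window. Capitals mark matches, on either strand, to GAAA followed by any 2 bases and a second GAAA, the core of the interferon-stimulated response element. The windows are RSAD2 at chr2:6877527-6877826, MX1 at chr21:41420308-41420607 and IFI44L at chr1:78620198-78620497, all on the plus strand.
RSAD2: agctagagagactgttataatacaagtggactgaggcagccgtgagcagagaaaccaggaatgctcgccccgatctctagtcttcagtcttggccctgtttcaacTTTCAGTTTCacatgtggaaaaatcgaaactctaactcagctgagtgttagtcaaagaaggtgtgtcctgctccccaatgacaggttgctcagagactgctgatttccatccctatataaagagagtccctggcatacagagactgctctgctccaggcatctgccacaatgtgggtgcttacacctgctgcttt
MX1: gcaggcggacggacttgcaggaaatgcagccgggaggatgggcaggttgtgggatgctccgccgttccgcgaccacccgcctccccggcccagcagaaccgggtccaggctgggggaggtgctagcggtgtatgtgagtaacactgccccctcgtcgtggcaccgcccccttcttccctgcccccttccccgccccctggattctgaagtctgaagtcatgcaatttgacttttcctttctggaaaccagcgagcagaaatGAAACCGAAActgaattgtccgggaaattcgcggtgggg
IFI44L: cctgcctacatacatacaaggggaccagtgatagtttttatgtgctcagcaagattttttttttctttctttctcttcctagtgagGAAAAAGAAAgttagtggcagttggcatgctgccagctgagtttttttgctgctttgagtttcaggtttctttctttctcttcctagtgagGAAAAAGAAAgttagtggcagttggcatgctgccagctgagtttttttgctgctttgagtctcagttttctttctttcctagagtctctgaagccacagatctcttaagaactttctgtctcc
Of 30 tested members of the list with a window, 21 (70%) had the motif in at least 1 window, against 4.24% of the 10738 tested genes with a window and 3.57% of all 35116 windows. Among genes at least 2-fold lower in PURPL-OE-2 it was present in 14.3% of 505, and in 10.7% of the 477 left once the interferon list was taken out. Among genes at least 2-fold higher it was present in 5.2% of 173. A match describes letters in a window and is neither a binding site nor a cause.

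The same fall ran through sensors, signal carriers and effectors. STAT2, a transcription factor that carries the interferon signal, was lower by a smaller step than most of the list (-0.72). The RNA sensor IFIH1 fell by 3.39, and IRF7, which amplifies interferon production, fell by 3.26 on the log2 scale. IRF7 was near the floor, with means of 0.0759 CPM in PURPL-OE-2 and 0.795 CPM in Ctrl, so the size of its fall is uncertain. Of the oligoadenylate synthetases, which activate RNA decay, OAS1 measured 5.97, 7.54 and 5.08 CPM in PURPL-OE-2 against 182, 193 and 193 in Ctrl, OAS2 fell by 3.88 and OASL by 6.25. IFIT1, which binds foreign RNA, measured 102, 112 and 104 CPM in PURPL-OE-2 against 1289, 1309 and 1204 CPM in Ctrl (log2 -3.58 ± 0.0575, adjusted p = 4.26e-29). IFI44L fell by 4.81, CMPK2, a mitochondrial nucleotide kinase, by 6.18, IFI27 by 5.94 and BST2, which tethers budding virions, by 5.21. OASL had 3, 4 and 4 counts and IFI27 3, 6 and 4 counts in PURPL-OE-2, so the sizes of their falls are uncertain. The noncoding RNA NRIR, transcribed beside RSAD2 and CMPK2 and named as a negative regulator of interferon responses, had 1, 2 and 3 counts in the PURPL-OE-2 libraries and 424, 435 and 287 counts in Ctrl (log2 -7.37, adjusted p = 2.27e-20). CXCL10, an interferon-induced chemokine, had 0 counts in all PURPL-OE-2 libraries and 2.1, 1.76 and 2.22 CPM in Ctrl, which is at least 43.8-fold lower against a floor of 3 counts over the group, and the median of the list was -3.46 with it at that bound. GBP1P1, a pseudogene of an interferon-induced GTPase whose reads may be shared with its parent, fell by 4.37.

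The level of the response in Ctrl bears on how the fall is read. Summed over the list, PURPL-OE-2 held 2420 to 2509 CPM, PURPL-OE-1 2545 to 2589 CPM and Ctrl 16061 to 16376 CPM. The sgCtrl libraries of the knockdown table, which was normalized separately, held 5990 to 6245 CPM, so Ctrl was the highest of these groups and PURPL-OE-2 lay below both controls. Why the controls of the 2 tables differed was not tested.

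Antigen presentation fell as well. Of 14 tested genes, 13 were lower and 0 higher (19.6% and 18.9% of all genes), with a median of -0.95. B2M, the light chain of class I molecules, measured 1026, 977 and 1089 CPM in PURPL-OE-2 and 2504, 2524 and 2576 CPM in Ctrl (-1.30 ± 0.0525, adjusted p = 1.20e-18), a lower level in every PURPL-OE-2 library. HLA-B fell by 1.77, the peptide transporter TAP1 by 1.93 and the immunoproteasome subunit PSMB8 by 1.13, and PSMB10 did not pass (-0.56, adjusted p = 0.0512). Reads of the class I heavy chain genes can be shared among near-identical copies, so their single values are uncertain.

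**Figure D1:**
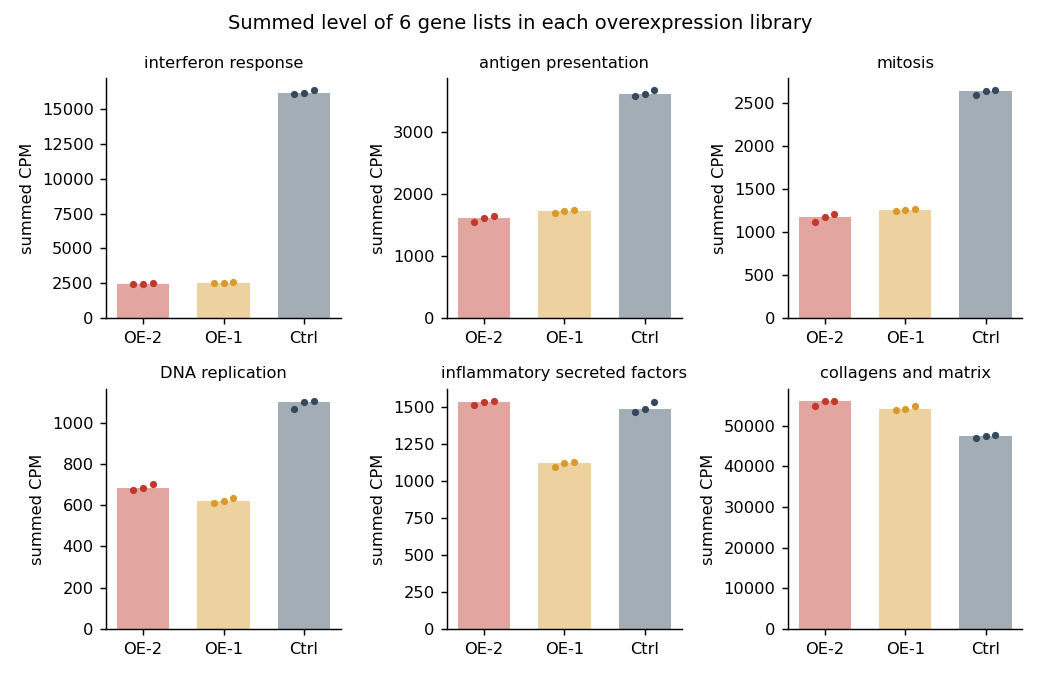
Summed TMM-scaled CPM of 6 gene lists in the overexpression table, 1 dot per library from lowest to highest, bars at the group's median, each axis starting at 0. The interferon list is at 2420 to 2509 CPM in PURPL-OE-2 and 16061 to 16376 CPM in Ctrl. The inflammatory list does not fall in sum, in which TNFRSF11B and CXCL12, both higher in PURPL-OE-2, weigh heavily.

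The inflammatory secreted factors were mostly lower, with 14 of 17 tested lower, 2 higher (19.6% and 18.9% of all genes) and a median of -2.22. CXCL8, which draws in neutrophils, measured 0.959, 1.2 and 0.533 CPM in PURPL-OE-2 against 16.6, 17.7 and 18.1 CPM in Ctrl (-4.30 ± 0.174, adjusted p = 1.20e-18). IL6, the best known cytokine of the senescence secretome, measured 1.6, 2.41 and 2.05 CPM in PURPL-OE-2 against 14.7, 15.9 and 14.1 CPM in Ctrl (-2.87 ± 0.146, adjusted p = 3.51e-16). Neither gene's PURPL-OE-2 libraries came near the Ctrl range. The upstream cytokines IL1A and IL1B fell by 2.08 and 2.44, the chemokine CXCL1 by 3.45, LIF by 2.49, CCL2, which attracts monocytes, by 0.84 and PTGS2, the inducible prostaglandin synthase, by 1.33. CXCL12, a chemokine that fibroblasts secrete constitutively, went the other way: 464, 432 and 461 CPM in PURPL-OE-2 and 178, 166 and 197 CPM in Ctrl, a rise of 1.33 ± 0.0571 (adjusted p = 5.21e-18). TNFRSF11B, a decoy receptor of bone turnover, also rose (0.23). The list's summed level was 1516 to 1547 CPM in PURPL-OE-2 and 1467 to 1535 CPM in Ctrl, overlapping ranges that did not follow its median. The 2 members that rose weigh heavily in it. TNFRSF11B had means of 812 CPM in PURPL-OE-2 and 690 in Ctrl, and CXCL12 452 and 180. In sgCtrl of the separately normalized knockdown table it was 786 to 845 CPM. Means in sgCtrl were 0.477 CPM for CXCL8, 1.04 for IL6, 0.954 for IL1A, 62.3 for CCL2 and 7.95 for IL1B. In PURPL-OE-2 they were 0.898, 2.02, 2.17, 108 and 2.72 CPM. Of these genes, all lower than in Ctrl, only IL1B was also below sgCtrl.

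Proteases, their inhibitors and growth factors were split, 19 of 32 lower and 6 higher (19.6% and 18.9% of all genes), with a median of -0.35. MMP1, the interstitial collagenase, measured 97.8, 91.7 and 94.7 CPM in PURPL-OE-2 and 585, 606 and 599 CPM in Ctrl (-2.66 ± 0.0539, adjusted p = 1.82e-26). The stromelysin MMP3 fell by 2.24, PLAU, the urokinase that activates plasmin, by 2.31 and the stress hormone STC2 by 1.03. IGFBP2, which binds insulin-like growth factors, rose to 64.8, 51.2 and 56.2 CPM in PURPL-OE-2, against 16.1, 15.3 and 19.6 CPM in Ctrl (1.76 ± 0.103, adjusted p = 7.40e-11), and FGF7, a fibroblast factor for epithelia, rose by 0.94.

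Genes of cell division fell as a block. All 34 tested mitosis genes were lower, 27 of them at least 2-fold (5.21% of all genes were), with a median of -1.23, and for all 34 the PURPL-OE-2 libraries lay below the Ctrl libraries (23.3% of all genes). MKI67, the proliferation marker, measured 121, 139 and 148 CPM in PURPL-OE-2 against 375, 360.4 and 394 CPM in Ctrl (-1.47 ± 0.0666, adjusted p = 4.57e-15). CENPF, a kinetochore protein, measured 73.1, 78.1 and 78.3 CPM in PURPL-OE-2 against 234, 216 and 235 CPM in Ctrl (-1.58 ± 0.0541, adjusted p = 2.07e-20). TOP2A, which untangles chromosomes, fell by 1.43, the spindle protein DLGAP5 by 1.42, ANLN, a scaffold of the contractile ring, by 1.17, and the kinase CDK1 with its cyclin CCNB1 by 1.32 and 1.23. BUB3 changed least in the list (-0.31).

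The windows of the 3 mitosis genes with the smallest adjusted p and a match are shown next, with capitals at TTTGAA on either strand, the cell cycle genes homology region through which repressor complexes act in resting cells. They are CENPF at chr1:214602945-214603244 on the plus strand, TOP2A at chr17:40417847-40418146 and DLGAP5 at chr14:55191536-55191835, both on the minus strand.
CENPF: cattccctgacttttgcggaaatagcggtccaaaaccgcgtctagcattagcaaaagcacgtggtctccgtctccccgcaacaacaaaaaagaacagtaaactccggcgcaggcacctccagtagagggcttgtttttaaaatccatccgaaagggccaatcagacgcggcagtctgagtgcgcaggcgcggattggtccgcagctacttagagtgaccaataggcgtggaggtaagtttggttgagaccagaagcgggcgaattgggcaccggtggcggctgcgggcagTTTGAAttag
TOP2A: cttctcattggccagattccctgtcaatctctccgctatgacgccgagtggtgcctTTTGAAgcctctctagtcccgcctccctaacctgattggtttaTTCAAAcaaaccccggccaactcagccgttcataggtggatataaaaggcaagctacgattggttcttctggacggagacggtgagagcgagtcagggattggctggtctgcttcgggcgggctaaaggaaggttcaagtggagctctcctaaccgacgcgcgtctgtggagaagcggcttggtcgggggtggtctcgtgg
DLGAP5: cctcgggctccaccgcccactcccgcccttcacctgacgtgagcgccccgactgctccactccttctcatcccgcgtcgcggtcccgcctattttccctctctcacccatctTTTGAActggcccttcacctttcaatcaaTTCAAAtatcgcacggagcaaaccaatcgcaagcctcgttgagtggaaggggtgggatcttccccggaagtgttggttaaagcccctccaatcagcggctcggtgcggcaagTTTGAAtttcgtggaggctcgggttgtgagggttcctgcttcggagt
TTTGAA was present for 21 of 29 mitosis genes with a window (72.4%), against 14.4% of tested genes with a window and 15.2% of all windows, and for 1 of 31 DNA replication genes (3.23%). Among genes at least 2-fold lower in PURPL-OE-2 it was present in 24.2% of 505, and among those at least 2-fold higher in 19.7% of 173. The letters CCAAT, on either strand, were present for 75.9% of the mitosis genes, 64.5% of the replication genes and 42.9% of tested genes. TTTGAA can overlap CCAAT by 1 base and the interferon motif by 3, and each match describes letters only.

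DNA replication followed mitosis, with 32 of 35 tested genes lower, 0 higher (19.6% and 18.9% of all genes) and a median of -0.83. CDC45, part of the replicative helicase, measured 3.89, 5.0 and 3.81 CPM in PURPL-OE-2 and 13.6, 13.1 and 12.3 CPM in Ctrl (-1.62 ± 0.127, adjusted p = 8.75e-12). RRM2, the S-phase subunit of ribonucleotide reductase, fell by 0.95, the sliding clamp PCNA by 0.73, ORC6 of the origin complex by 1.47 and the helicase subunit MCM2 by 1.22. MCM6, another subunit of that helicase, stood at 48.2, 50.9 and 47.3 CPM in PURPL-OE-2 and 50.6, 47.5 and 45.6 CPM in Ctrl, and its ranges overlapped (0.02 ± 0.0616, adjusted p = 0.799). Of 11 tested replication-dependent histone genes, whose transcripts mostly lack the poly(A) tail this method selects, 4 were lower and 1 higher: H2BC21 fell by 1.06, H2BC5 by 0.67 and H2AC6 by 0.36, and H4C8 rose by 0.45.

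Regulators of arrest and targets of p53 went both ways. Of 12 arrest genes 4 were lower and 3 higher (median -0.08), and of 29 p53 targets 8 were lower and 7 higher (median -0.08), where 19.6% of all genes were lower and 18.9% higher. CDKN1A, which encodes p21, measured 69.8, 67.9 and 62.4 CPM in PURPL-OE-2 against 78.7, 81.0 and 73.7 CPM in Ctrl (-0.23 ± 0.0666, adjusted p = 0.00791). That is a lower level in each PURPL-OE-2 library, but the call was lost without replicate 3 of PURPL-OE-2 (-0.18, adjusted p = 0.0563). CDKN2A, whose locus encodes p16 and ARF, measured 7.84, 9.16 and 11.1 CPM in PURPL-OE-2 and 10.8, 10.9 and 9.91 CPM in Ctrl, with overlapping ranges (-0.17 ± 0.127, adjusted p = 0.317). CDKN2B, which encodes p15, did not pass (-0.14, adjusted p = 0.36), but did without library b (-0.31, adjusted p = 0.023). RB1, the retinoblastoma protein, did not pass (-0.03, adjusted p = 0.698), its relative RBL1 fell by 0.90 and RBL2 rose by 0.27, as did CDKN1B, which encodes p27 (0.34). MDM2, an antagonist and target of p53, fell by 0.38, the stress cytokine GDF15 by 1.88 and GADD45A, a damage-induced arrest gene, by 0.97, while ZMAT3, an RNA-binding p53 target, rose by 0.58.

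Of 13 genes of the nuclear lamina and the HMGB chromatin proteins 3 were lower and 4 higher (median -0.03). Of all genes tested 19.6% were lower and 18.9% higher, so these counts alone are not a result about the list. LMNB1, lamin B1, measured 10.6, 12.7 and 10.2 CPM in PURPL-OE-2 against 29.8, 24.4 and 25.2 CPM in Ctrl (-1.25 ± 0.103, adjusted p = 2.87e-11). HMGB2 fell by 0.74 and LMNB2 by 0.64, LBR, the receptor of lamin B, rose by 0.32, and HMGB1 did not pass (-0.03, adjusted p = 0.717). GLB1, the lysosomal enzyme behind the common senescence stain, measured 39.7, 40.6 and 35.7 CPM in PURPL-OE-2 and 41.1, 48.2 and 40.0 CPM in Ctrl. Its ranges overlapped and it did not pass (-0.16 ± 0.0758, adjusted p = 0.097), though it did without replicate 3 of Ctrl (-0.21, adjusted p = 0.0431). Over the panel of 21 senescence genes, 15 were lower, 1 was higher (PURPL) and 5 did not pass.

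**Figure D2:**
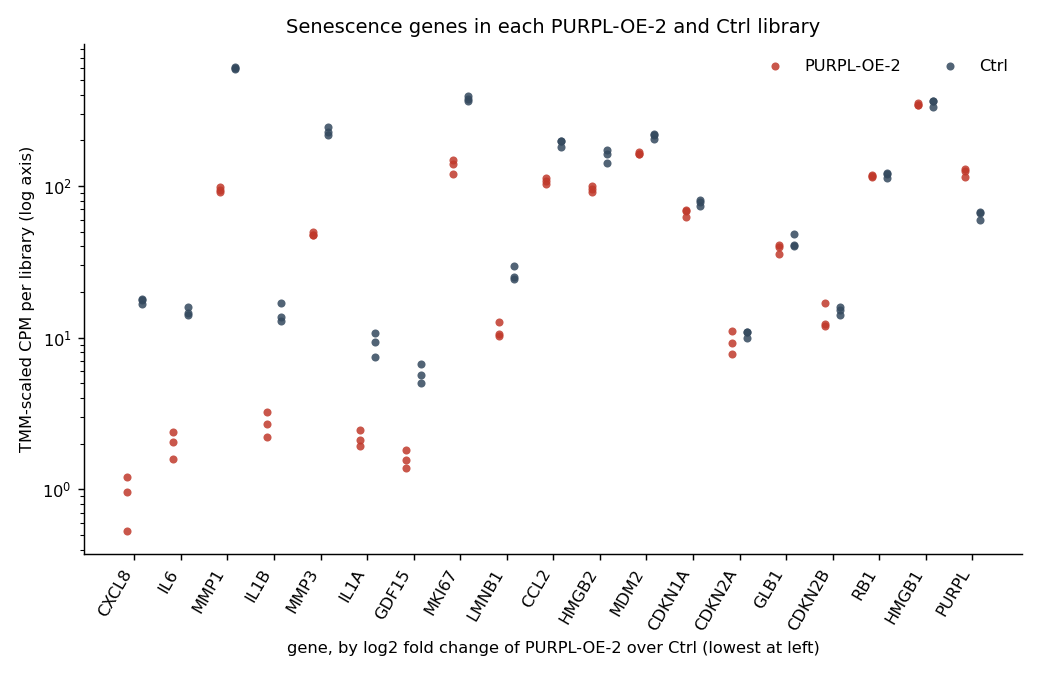
TMM-scaled CPM (log axis) of 19 of the 21 senescence genes in each of the 3 PURPL-OE-2 and 3 Ctrl libraries, 1 dot per library, ordered by log2 fold change. Secreted factors and proteases at the left, MKI67 and LMNB1 sit lower in PURPL-OE-2, the dots of CDKN2A, GLB1, CDKN2B, RB1 and HMGB1 overlap, and PURPL alone sits higher.

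Genes of the matrix leaned upward, with 18 of 40 higher and 8 lower (18.9% and 19.6% of all genes) and a median of 0.13. The count lower lies near the share of all genes. DCN, a collagen-binding proteoglycan, measured 3229.6, 3123 and 3123 CPM in PURPL-OE-2 and 1747, 1795 and 1495 CPM in Ctrl (0.91 ± 0.0584, adjusted p = 8.75e-14). MFAP4 of elastic fibres rose by 1.41, the basement membrane protein FBLN1 by 1.18, the proteoglycan BGN by 0.95, LUM by 0.38 and COL1A1, a chain of type I collagen, by 0.47. COL3A1 stood at 1291, 1305 and 1345 CPM in PURPL-OE-2 and 1316, 1325 and 1283 CPM in Ctrl (0.01, adjusted p = 0.938), with overlapping ranges. POSTN, periostin, was the exception in size, at 65.3, 69.4 and 66.9 CPM in PURPL-OE-2 and 248, 219.8 and 256 CPM in Ctrl (-1.84 ± 0.0601, adjusted p = 5.48e-21). COL6A3 of type VI collagen also fell (-0.42).

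Contractile and TGF-beta responsive genes showed 12 of 22 higher and 5 lower (18.9% and 19.6% of all genes), with a median of 0.23. Here too the count lower lies near the share of all genes. THBS1, thrombospondin, which activates TGF-beta, had the largest rise in CPM of any called gene, at 11219, 11708 and 11108 CPM in PURPL-OE-2 and 6268, 6438 and 6326 CPM in Ctrl (0.84 ± 0.0515, adjusted p = 3.13e-14). The matricellular protein CCN2 rose by 0.87, LTBP2, which binds latent TGF-beta complexes, by 0.77 and the actin-binding CNN2 by 0.56. ANKRD1, with means of 0.98 CPM in PURPL-OE-2 and 5.19 CPM in Ctrl, fell by 2.40. RND3, which opposes contraction, had the largest fall in CPM, at 2762, 2872 and 2888 CPM in PURPL-OE-2 and 7000.3, 6589 and 7402 CPM in Ctrl (-1.30 ± 0.0543, adjusted p = 2.61e-18). All of these groups of 3 libraries were clear of each other.

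Among immediate early genes and ERK feedback genes 13 of 25 were lower and 3 higher (19.6% and 18.9% of all genes), with a median of -0.47. FOSL1, an AP-1 subunit that follows sustained ERK signalling, measured 23.3, 17.6 and 20.3 CPM in PURPL-OE-2 and 82.9, 80.6 and 84.9 CPM in Ctrl (-2.02 ± 0.0799, adjusted p = 2.10e-18). PHLDA1 fell by 1.51, and the feedback inhibitors DUSP4 and SPRY4 by 1.03 and 0.56. FOS went the other way, with 6.56, 5.37 and 4.75 CPM in PURPL-OE-2 and 1.6, 2.62 and 2.53 CPM in Ctrl (1.31 ± 0.19, adjusted p = 1.62e-06).

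Of 24 genes of the NRF2 antioxidant response 13 were higher and 3 lower (18.9% and 19.6% of all genes), with a median of 0.15. AKR1C3, an aldo-keto reductase of steroids and lipid aldehydes, measured 16.5, 15.5 and 12.7 CPM in PURPL-OE-2 against 3.7, 4.26 and 4.34 CPM in Ctrl (1.86 ± 0.145, adjusted p = 1.42e-11). Reads of AKR1C1, AKR1C2 and AKR1C3 can be split among near-identical copies, so each value is uncertain. GCLM, which limits glutathione synthesis, rose by 0.78 and the exporter ABCC3 by 0.75, while the cystine transporter SLC7A11 fell by 0.62.

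Stress of the endoplasmic reticulum and the ATF4 response gave 10 of 26 lower and 6 higher (median -0.11), against 19.6% and 18.9% of all genes. ATF3, a stress-induced transcription factor, fell by 1.77, the amino acid transporter subunits SLC7A5 and SLC3A2 by 0.90 and 0.74, and VLDLR rose by 0.53. Cholesterol synthesis gave 6 of 22 lower and 3 higher (median -0.03): STARD4, a sterol carrier, fell by 0.66, the synthase HMGCS1 by 0.60 and INSIG1, a brake on sterol synthesis, by 0.32. In glycolysis and hypoxia 6 of 24 were lower and 4 higher (median -0.03). The glucose transporter SLC2A1 measured 129, 110.3 and 113 CPM in PURPL-OE-2 and 59.9, 58.7 and 58.2 CPM in Ctrl (0.99 ± 0.0586, adjusted p = 1.28e-14), while hexokinase HK2 fell by 1.28 and the phosphofructokinase PFKP by 0.76, and NDRG1 rose by 0.29.

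Of 23 lysosomal genes 10 were lower and 3 higher (median -0.16), and the protease CTSL fell by 0.89, the cholesterol exporter NPC1 by 0.76 and CTSK by 0.53. In the BCL2 family 4 of 11 were lower and 2 higher (19.6% and 18.9% of all genes), with a median of -0.28. PMAIP1 (NOXA), a death-promoting p53 target, fell by 1.45 and the survival factor MCL1 by 0.29. BMF, which promotes death on loss of anchorage, measured 9.81, 11.2 and 9.71 CPM in PURPL-OE-2 and 3.0, 3.87 and 2.38 CPM in Ctrl (1.71 ± 0.143, adjusted p = 4.03e-11), and BCL2L11, which encodes BIM, rose by 0.82. Positional genes held 6 of 23 lower and 5 higher (median -0.11): PRRX1, a mesenchymal homeobox gene, fell by 0.69 and TBX15 by 0.48, and HOXA13 and TWIST1 rose by 0.61 and 0.42. The counts of cholesterol, glycolysis and positional genes lie near the 19.6% lower and 18.9% higher of all genes tested, so they are not a result about those lists.

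The 6 largest rises in CPM belonged to THBS1, MT-CO1, EEF1A1, MT-RNR2, LUM and MT-CO3. EEF1A1, the elongation factor that brings tRNA to ribosomes, measured 6644, 7359 and 6501 CPM in PURPL-OE-2 and 3823, 4112 and 3507 CPM in Ctrl (0.84 ± 0.0594, adjusted p = 8.39e-13). Of 13 protein-coding mitochondrial genes 4 were higher and 0 lower (median 0.32). Of all genes tested 18.9% were higher and 19.6% lower, so this count alone is not a result about the mitochondrial genes. MT-CO1, a subunit of cytochrome oxidase, measured 13617, 13624 and 14517 CPM in PURPL-OE-2 and 8977, 8660.3 and 9558 CPM in Ctrl (0.62 ± 0.0869, adjusted p = 3.44e-05). MT-CO3 rose by 0.73, MT-ATP6 by 0.31 and the ribosomal RNA MT-RNR2 by 0.28, though poly(A) selection takes up mitochondrial ribosomal RNA unevenly. MT-CYB rose by 0.50 (adjusted p = 0.0177), a call that was lost without replicate 2 of Ctrl (0.46, adjusted p = 0.0879), without library a of PURPL-OE-2 (0.48, adjusted p = 0.054) and without replicate 3 of PURPL-OE-2 (0.45, adjusted p = 0.0683).

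**Figure D3:**
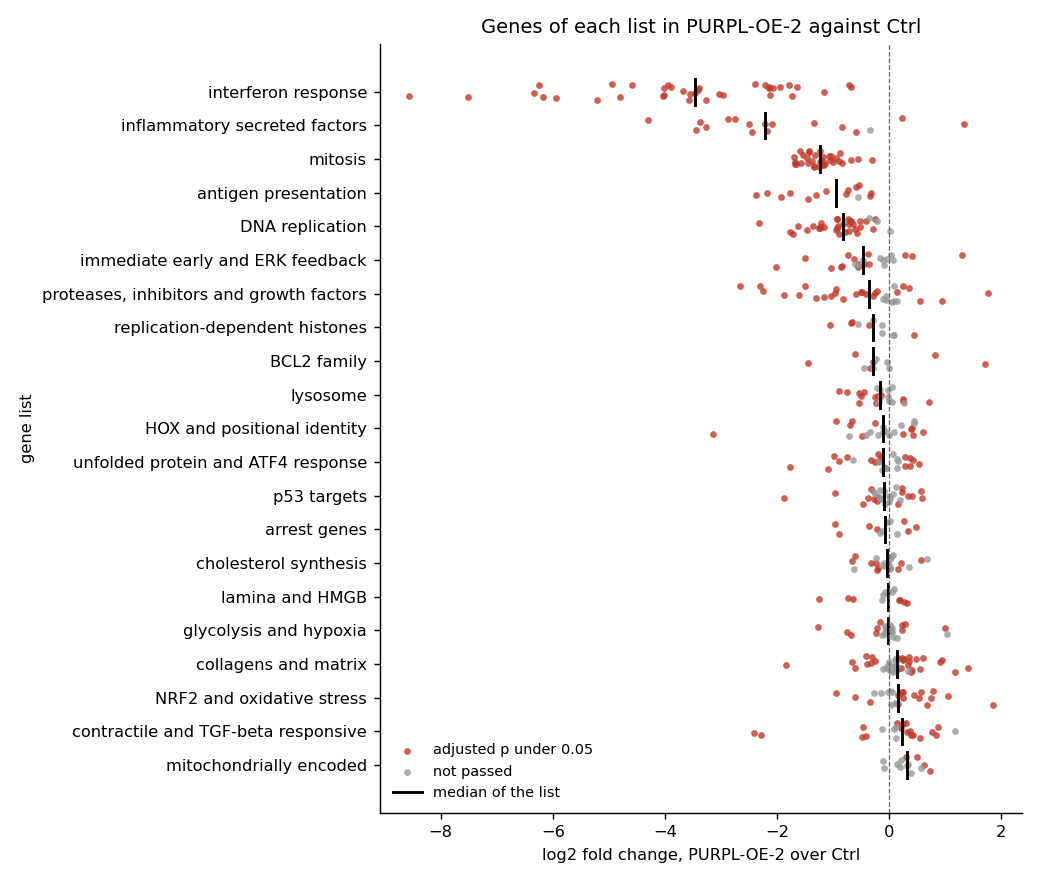
Log2 fold changes of PURPL-OE-2 over Ctrl for the tested genes of 21 lists, 1 dot per gene, red where the adjusted p is under 0.05 and grey otherwise, with a black bar at the median of the list. The interferon list lies wholly below 0 around -3.46 and the mitosis list around -1.23, while most other medians lie within 0.5 of 0; CXCL10, at the far left, was at 0 counts in PURPL-OE-2, so its place depends on the fit.

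The 12 highest fold changes by the naming rule included 6 secreted proteins, SLIT3, IGF2, WNT2, MGP, EGFL6 and IGFBP2. SLIT3, a secreted ligand of Robo receptors, measured 192, 198 and 189.6 CPM in PURPL-OE-2 and 42.6, 50.6 and 51.3 CPM in Ctrl (2.01 ± 0.0628, adjusted p = 4.38e-21). IGF2, the fetal insulin-like growth factor, measured 81.6, 79.0 and 83.4 CPM in PURPL-OE-2 and 18.3, 21.2 and 27.0 CPM in Ctrl (1.89 ± 0.0965, adjusted p = 3.11e-11). WNT2, a ligand of the Wnt pathway, measured 22.7, 21.1 and 20.4 CPM in PURPL-OE-2 and 3.86, 3.4 and 5.27 CPM in Ctrl (2.38 ± 0.12, adjusted p = 2.78e-16). None of the 3 had a PURPL-OE-2 library near the Ctrl range, though the rule took only genes whose libraries did not overlap. MGP, an inhibitor of calcification, rose by 2.25, EGFL6, a secreted protein with EGF-like repeats, by 2.73, RGS7BP, which anchors regulators of G protein signalling, by 2.32, the kinase-dead ephrin receptor EPHB6 by 1.93, the kinase PTK2B by 1.76 and NTRK2, the receptor of BDNF, by 1.75. TRBC2, annotated as a constant segment of the T cell receptor with a near-identical neighbour, rose by 2.18 while the immune markers stayed at the levels given above. At the other end, outside the interferon list, the tight junction protein CLDN1 measured 0.373, 0.278 and 0.451 CPM in PURPL-OE-2 and 11.6, 11.1 and 10.6 CPM in Ctrl (-4.89 ± 0.21, adjusted p = 5.19e-18).

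Set directly against PURPL-OE-1, PURPL-OE-2 differed in 1888 genes (12.4%), 943 higher (6.18%) and 945 lower (6.19%), and 181 differed at least 2-fold (1.19%). The number higher was 600 without library a of PURPL-OE-1. EGFL6 measured 7.62, 10.3 and 9.71 CPM in PURPL-OE-2 and 1.93, 1.89 and 1.5 CPM in PURPL-OE-1 (log2 2.38 ± 0.188, adjusted p = 2.01e-10), and its PURPL-OE-1 libraries lay within the Ctrl range, where the libraries held 0.935, 1.33 and 2.01 CPM. CAVIN4, a coat protein of caveolae known from muscle, measured 8.9, 8.47 and 8.69 CPM in PURPL-OE-2 and 2.65, 2.47 and 2.14 CPM in PURPL-OE-1 (1.84 ± 0.146, adjusted p = 1.57e-10). AKR1C3 was higher by 1.76, with AKR1C1 and AKR1C2 higher by 1.33 and 1.02, ADAM22, an inactive metalloprotease that serves as a receptor, by 1.53, and RIPOR3 by 1.42. GBP4, an interferon-induced GTPase, measured 16.1, 17.7 and 14.7 CPM in PURPL-OE-2, 5.76, 5.53 and 5.97 CPM in PURPL-OE-1 and 54.2, 50.6 and 51.7 CPM in Ctrl, so it was low in both lines but less so in PURPL-OE-2 (1.49 ± 0.0968, adjusted p = 2.54e-12).

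LBH, a transcription cofactor of limb and heart development, was lowest relative to PURPL-OE-1 among genes with a symbol, libraries not overlapping and at least 5 CPM in the higher line, at 133, 134 and 131 CPM in PURPL-OE-2, 382, 388 and 381 CPM in PURPL-OE-1 and 86.3, 83.8 and 91.2 CPM in Ctrl (-1.53 ± 0.0501, adjusted p = 2.22e-19). HAPLN1, which links hyaluronan to proteoglycans, was lower than in PURPL-OE-1 by 1.49, AKAP6, an anchor of protein kinase A, by 1.47, the neuronal filament protein INA by 1.38, the ion channel subunit TMC1 by 1.37 and APOL1, an interferon-induced lipoprotein component, by 1.39 on the log2 scale. By list, where 6.19% of all genes were lower and 6.18% higher, contractile and TGF-beta responsive genes held 8 lower and 1 higher of 22. Among them CCN2 was at -0.70 and ACTA2 at -0.41. Inflammatory factors held 7 higher and 0 lower of 17, with CXCL12 at 1.06, CXCL1 at 0.98 and CCL2 at 0.64. Interferon genes held 7 higher and 6 lower of 37, and mitosis genes 6 lower of 34 (CENPF -0.19), with medians of 0.01 and -0.07. Against Ctrl the 2 lines share the same control libraries, so their own fold changes are given only side by side: the interferon median was -3.46 in PURPL-OE-2 and -3.38 in PURPL-OE-1, the mitosis median -1.23 in PURPL-OE-2 and -1.14 in PURPL-OE-1, the inflammatory median -2.22 in PURPL-OE-2 and -2.68 in PURPL-OE-1, and the contractile median 0.23 in PURPL-OE-2 and 0.45 in PURPL-OE-1.

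**Figure D4:**
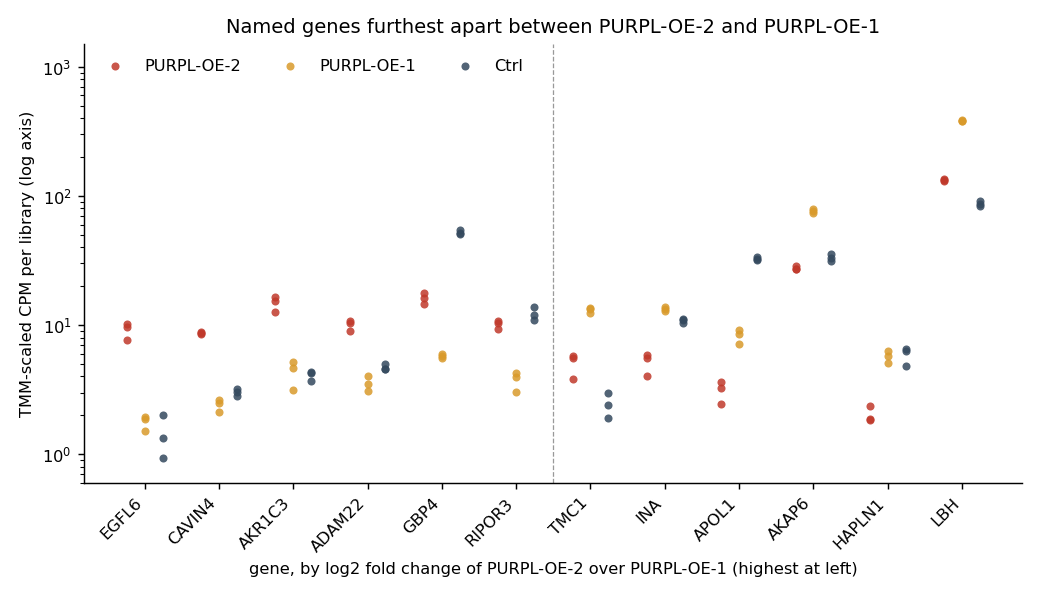
TMM-scaled CPM (log axis) of the 12 genes with a symbol, libraries not overlapping and at least 5 CPM in the higher line that were furthest apart between the overexpression lines, 1 dot per library, with PURPL-OE-2 to the left, PURPL-OE-1 in the middle and Ctrl to the right of each gene. Left of the dashed line PURPL-OE-2 is above PURPL-OE-1 and right of it below, and for CAVIN4, AKR1C3, ADAM22 and EGFL6 the PURPL-OE-1 dots lie near or below those of Ctrl.

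The knockdown table, with its own controls, measured these genes where PURPL was lowered, by 2.36 with sgPURPL-1 and 2.06 with sgPURPL-2 on the log2 scale. Of 13638 genes tested in both tables, 923 (6.77%) were higher and 1122 (8.23%) lower with both guides against sgCtrl. Of the 2731 genes higher in PURPL-OE-2, 10% were higher and 7.8% lower with both guides, and of the 2802 lower in PURPL-OE-2, 8.99% were higher and 18.1% lower. For the 617 genes at least 2-fold lower in PURPL-OE-2 the shares were 13% higher and 25.6% lower, and for the 184 at least 2-fold higher they were 17.9% higher and 7.61% lower. These overlaps were not tested.

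Mitosis genes were lower in both experiments: 33 of 34 were lower with both guides and 34 of 34 in PURPL-OE-2, with MKI67 at -1.47 in PURPL-OE-2, -1.0 with sgPURPL-1 and -0.67 with sgPURPL-2. DNA replication genes did the same, with 30 of 35 lower with both guides. Of the interferon genes, lower throughout in PURPL-OE-2, 17 of 35 were higher with both guides, 0 were lower with both and the rest did not pass in the same direction with both, and MX1 was at -4.59 in PURPL-OE-2, 0.34 with sgPURPL-1 and 0.61 with sgPURPL-2. The median of the interferon list was -3.46 in PURPL-OE-2, 0.21 with sgPURPL-1 and 0.42 with sgPURPL-2. CXCL8 also ran in opposite directions, at -4.30 in PURPL-OE-2, 1.80 with sgPURPL-1 and 2.03 with sgPURPL-2, as did MMP1 (-2.66 in PURPL-OE-2, 0.56 with sgPURPL-1 and 0.77 with sgPURPL-2). The CXCL8 rises started from few reads, at 0.260, 0.389 and 0.783 CPM in sgCtrl, where Ctrl had a mean of 17.5 CPM. Lower in both experiments were MMP3, at -2.24 in PURPL-OE-2, -1.07 with sgPURPL-1 and -0.58 with sgPURPL-2, IL1B (-2.44 in PURPL-OE-2, -1.20 with sgPURPL-1 and -1.13 with sgPURPL-2) and LMNB1 (-1.25 in PURPL-OE-2, -0.72 with sgPURPL-1 and -1.03 with sgPURPL-2). CDKN1A was lower in PURPL-OE-2 (-0.23) and higher with sgPURPL-1 (0.16, adjusted p = 0.0495) and sgPURPL-2 (0.20, adjusted p = 0.0113).

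**Figure D5:**
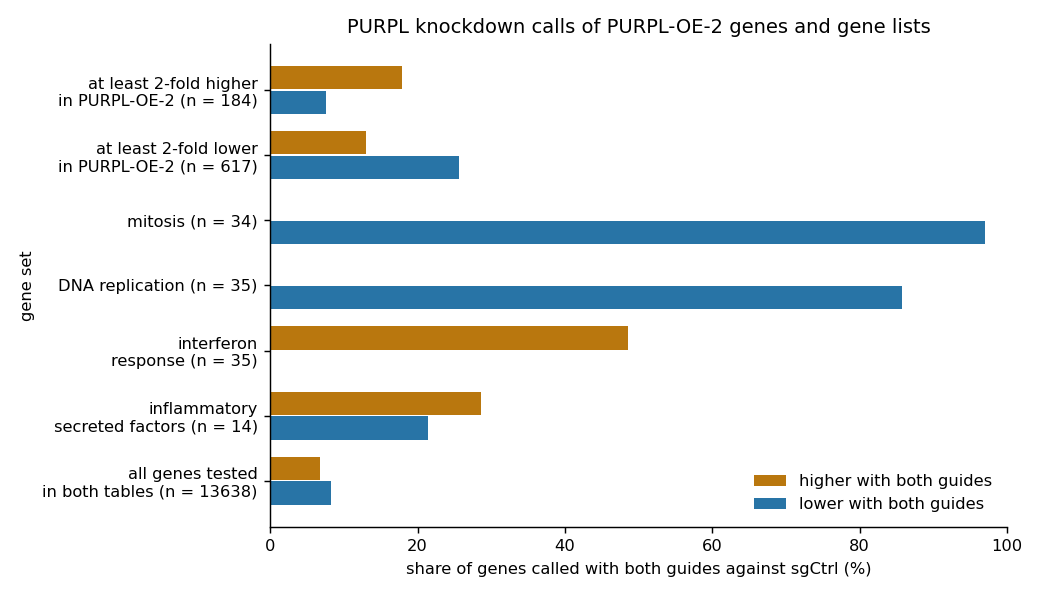
Share of genes (%) that were called higher or lower with both PURPL guides against sgCtrl, for genes at least 2-fold changed in PURPL-OE-2, for 4 gene lists and for all genes tested in both tables. Mitosis and DNA replication have a bar for lower only (97.1% and 85.7%), the interferon list a bar for higher only (48.6%), and all genes stand at 6.77% higher and 8.23% lower.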

How the data were processed

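Poly(A) RNA of BJ cells was sequenced in paired reads without molecular identifiers, per the labels' protocols. The authors deposited raw read counts per gene in 2 tables of 9 libraries each. Per the submitters' processing notes, the read processing involved DESeq2 1.34.0, featureCounts 2.0.1, HISAT2 2.1.0, SAMtools 1.11, FastQC 0.11.9, Subread and cutadapt 3.3, with hg38 and GRCh38.p13. With the annotation release and the strand setting of counting not given in the sources used here, reads of antisense partners may not be told apart. The molecule is labelled genomic DNA, against the RNA protocol, which was followed.

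Samples were grouped by title, and 2 PURPL-OE-2 columns without replicate number entered as library a and library b. Genes were kept by filterByExpr (minimum count 10, total 15), libraries scaled by TMM, and all 9 libraries of a table fitted with edgeR 4.0.16 (robust quasi-likelihood, 6 residual degrees of freedom, R 4.3.3). The Benjamini-Hochberg adjustment ran over all genes tested, with a threshold of 0.05. Standard errors are the log2 fold change over the root of its F statistic. The fit was tested on simulated data. Levels are TMM-scaled CPM computed from the deposited counts, and the tables were normalized separately. Levels are not compared between genes.

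The members and the 21 gene lists, 5 marker lists and the 21-gene panel were chosen with earlier results of these data known, and lists are described by counts and medians only. Named genes were the panel, the 12 highest and 12 lowest fold changes (called, libraries not overlapping, at least 5 CPM in the higher group, with a symbol), the 6 largest rises and falls in CPM, the 4 smallest adjusted p in each list, and the 6 highest and 6 lowest against PURPL-OE-1. Other list members are named as examples chosen after their values were seen, and some genes the rule picked are not reported here. Alternatives were RLE scaling, DESeq2 1.42.0, no filter on low counts, only the groups compared, only genes without a same-strand overlap, and each library left out. Promoter windows are RefSeq's for GRCh38.p14, and of 15266 symbols tested 10738 had one.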

Additional observations from a re-analysis of the deposited data

Results flagged for a closer look

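The direct test between the overexpression lines called 1888 genes, so the lines differed although both were set against the same control. PURPL itself was lower in PURPL-OE-2 than in PURPL-OE-1 by a log2 difference of -0.50. By the same test, among genes with a symbol, libraries not overlapping and at least 5 CPM in the higher line, those furthest above PURPL-OE-1 were EGFL6 at 2.38, CAVIN4 at 1.84, AKR1C3 at 1.76, ADAM22 at 1.53, GBP4 at 1.49 and RIPOR3 at 1.42, all log2 fold changes of PURPL-OE-2 over PURPL-OE-1. Those furthest below it were LBH at -1.53, HAPLN1 at -1.49, AKAP6 at -1.47, APOL1 at -1.39, INA at -1.38 and TMC1 at -1.37. Of these, RIPOR3 did not pass in PURPL-OE-2 against Ctrl (-0.28, adjusted p = 0.0598, edgeR quasi-likelihood test), while TMC1 (1.04) and LBH (0.61) were above Ctrl although below PURPL-OE-1. For every gene named here but PURPL, the rule required the 3 libraries of each line to lie on one side of the other's. That separation is therefore not a result for them. PURPL, which the rule did not pick, was separated as well. Groups of 3 libraries are too small to single out one outlying library by its distance.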

How the results depend on the processing

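No paired analysis was possible because the columns of PURPL-OE-2 carry only replicate number 3 and so share fewer than 2 numbers with Ctrl. Confined to the 10317 genes with no same-strand overlap, the counts were 3855 against Ctrl (1880 higher, 1975 lower) and 1145 against PURPL-OE-1 (578 higher, 567 lower), since fewer genes were tested. Leaving out 1 library in turn gave 5073 to 5499 calls against Ctrl (2460 to 2728 higher, 2613 to 2809 lower), a log2 fold change of 0.87 to 0.98 for PURPL, and 1259 to 2039 calls against PURPL-OE-1 (600 to 1052 higher, 659 to 987 lower). Under RLE scaling, DESeq2, no filter on low counts and the 2 groups alone, calls against Ctrl numbered 5458 to 5867 and those against PURPL-OE-1 1767 to 2006. No gene picked by the naming rule that passed in the main analysis or in an alternative changed direction between them. Each was recomputed in the comparison that picked it, and other genes given as examples were not recomputed singly. Changes of sign in genes that passed in neither were not counted. Of the 5878 calls, 4915 to 5822 were kept under each alternative other than the confinement to genes without overlap, which kept 3829. For genes picked by the rule, 1296 of the values recomputed against Ctrl stayed on their side of the threshold. The call was lost in 4 (MT-CYB in 3, CDKN1A in 1) and gained in 2 (GLB1 and CDKN2B), as given with those genes. Of the list counts recomputed 444 stayed within 1.5 times and 18 did not, all of them in the smaller lists' counts of 10 or fewer. The scaling moved the median of all genes by under 0.1 log2. Genes that need under 10 counts in a library to be seen were not tested, so changes in rare transcripts were not detectable at this depth, and PCR copies are not independent molecules.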

Other observations

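One long noncoding RNA without a gene name, ENSG00000243620 on the minus strand of chromosome 3 from 146909685 to 147370656 (hg38), falls outside the naming rule and was chosen after its values were seen. It measured 15.9, 17.3 and 19.3 CPM in the PURPL-OE-2 libraries, 0.680, 0.405 and 0.593 CPM in PURPL-OE-1 and 0.663, 0.430 and 0.207 CPM in Ctrl. It was therefore high in PURPL-OE-2 and near the same low level in both other groups, 38.4-fold above Ctrl (log2 fold change 5.26 ± 0.203, adjusted p = 3.60e-19, edgeR quasi-likelihood test) and above PURPL-OE-1 by 4.93 ± 0.192 (adjusted p = 1.35e-17). It partly overlaps a gene on the same strand, and the sgCtrl libraries had 0 counts of it.

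Cytosolic ribosomal protein genes, a list added after values were seen, were higher in 58 of 77 and lower in 3, with a median log2 fold change of 0.50 against 0.01 over all genes tested. RPS3A, of the small subunit, was higher by 0.85 and RPL12, of the large subunit, by 0.88, while RPL22L1, a paralog of RPL22, was at -0.41. Their summed level was 27632 to 31545 CPM in PURPL-OE-2, 25661 to 26715 CPM in PURPL-OE-1 and 19621 to 20847 CPM in Ctrl, so the groups did not overlap. Many have processed pseudogenes that can share their reads, and 36 of the 77 partly overlap a same-strand gene.

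Library b of PURPL-OE-2 held higher levels of some receptor kinase genes than its fellow libraries, and so did library b of PURPL-OE-1; the genes were chosen after their values were seen. NTRK3 measured 1.33, 18.6 and 4.14 CPM in library a, library b and replicate 3, RET 2.24, 11.5 and 3.07 CPM and ALK 2.08, 9.07 and 3.93 CPM, and FLT3 had 6, 67 and 14 counts. In library a, library b and library c of PURPL-OE-1, NTRK3 had 53, 332 and 78 counts, RET 66, 126 and 39, ALK 75, 225 and 66, and FLT3 8, 21 and 10. In PURPL-OE-2 against Ctrl the adjusted p was 0.235 for NTRK3, 0.231 for RET and 0.241 for ALK, so none passed. RN7SL1, the RNA of the signal recognition particle, measured 35.9, 9.30 and 7.74 CPM in library a, library b and replicate 3 of PURPL-OE-2 (673, 201 and 189 counts) and had 164, 1031 and 223 counts in PURPL-OE-1 (adjusted p = 0.511 for PURPL-OE-2 against Ctrl). The cause of these differences between libraries was not tested. Over genes with a group mean of at least 5 CPM, 9 of 9773 ranged over more than 2-fold within PURPL-OE-2, 14 of 9730 within PURPL-OE-1 and 8 of 9839 within Ctrl.

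By chromosome, the median log2 fold change of PURPL-OE-2 over Ctrl ran from -0.06 on chromosome 18 (243 genes) to 0.04 on chromosome 17 (838 genes).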
